A study of Mus musculus with 14 samples.

Results

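The cytoplasmic ribosomal protein genes are the genes whose products build the small and large subunits of the ribosome outside the mitochondria. They were taken by symbol, as genes named Rpl or Rps with a number or named Rplp0, Rplp1, Rplp2 or Rpsa, leaving out the Rps6 kinases and pseudogenes. This gave 65 genes of the 19057 named on the array, with 96 of its 45281 probes, and the probe with the highest mean signal stood for each gene. Their signal was compared between 6 conditions of GFP+CD11b+ myeloid cells, measured on 14 Illumina arrays with 1 array per sample. The cells were sorted from intracranial breast cancer lesions (BrM) of the PyMT (n = 4) and EO771 (n = 2) cancer cell models. They also came from spleens (n = 3) and bone marrow (n = 1) of PyMT BrM-bearing mice, and from spleens (n = 2) and bone marrow (n = 2) of naïve mice without a tumor. All mice were C57Bl/6J and 14 weeks old, had been irradiated and carried transplanted bone marrow of mice with GFP under the Ubiquitin C promoter, and tumors had grown for 2 weeks. The naïve tissues stood in for EO771 controls, so model and tumor status of the control mice cannot be told apart. The labels do not state whether 1 mouse gave 1 sample throughout, and the title of EO771 BrM 2 holds a pair of codes.

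Ribosomal proteins are made in equal numbers to assemble with ribosomal RNA, and their genes are among the most strongly transcribed in any cell. Their mRNAs begin with a C followed by a run of C and T bases, the TOP tract (terminal oligopyrimidine), through which mTOR signaling controls how fast they are translated. Cells that grow and make much protein carry many ribosomes, whereas neutrophils lose most of theirs as they mature in the bone marrow.

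The start of the genes is shown for the members called higher in BrM than in bone marrow, because this is where the family carries its shared element. Rpl35, which was not called, is shown beside them. The sequences are RefSeq windows of 30 bases, from 15 before to 15 after the start in the promoter entry, in build GRCm38.p6. The capitals mark the longest run of C and T.
Rpl7a, chr2:26910792-26910821, plus strand: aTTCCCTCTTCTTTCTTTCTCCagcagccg
Rpl35, chr2:39005117-39005146, minus strand: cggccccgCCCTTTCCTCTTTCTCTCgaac
Rpl12, chr2:32961697-32961726, plus strand: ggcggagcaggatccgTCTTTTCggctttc
Rps7, chr12:28635939-28635968, minus strand: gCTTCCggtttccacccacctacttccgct
Rpl24, chr16:55966260-55966289, plus strand: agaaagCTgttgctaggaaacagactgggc
Rps27l, chr9:66946071-66946100, plus strand: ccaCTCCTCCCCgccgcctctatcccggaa
Rps19bp1, chr15:80264292-80264321, minus strand: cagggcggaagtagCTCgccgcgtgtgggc
Rpl7a and Rpl35 had the long uninterrupted runs, of 21 and 18 bases, while the longest run at the annotated start of Rpl24 was 2 bases. Rps27l had a second promoter entry, not shown, with a longest run of 4 bases. A promoter entry was found for 54 of the 65 members. Among 49 promoters of 41 brightly measured members, 18 (36.7%) held a run of 8 or more C or T in this window, against 12% of all 32851 promoters. The letters CCGGAAG, the core of an ETS factor motif, were found on either strand of the 300-base promoter in 20 of the 49 (40.8%), against 8.86% of all. AAGATGGC, the core of the YY1 motif, was found in 2 (4.08%), against 2.75% of all.

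The values were log2 signals that the authors had quantile normalized, so every array had the same median, 4.06, and the same highest value, 14.6. Of the 65 members, 53 lay at least 2 log2 units above that median on average. They were 49 ribosomal proteins, 19 of the small and 30 of the large subunit with its stalk, and 4 paralogs, which are near-copies encoded by a separate gene. The 49 are called the bright members here, and the paralogs are described apart from them. Of the other 12 members, 6 had a mean at or below the median of the array. They included the core ribosomal proteins Rps23 (mean 2.87), Rps20 (2.91), Rpl17 (3.48), Rpl14 (3.65) and Rpl6 (3.71), so these probes give no measure of those mRNAs. The other 6 lay less than 2 above it, such as Rpsa (4.26), the laminin receptor and small subunit protein, and Rps15a (6.0), a small subunit protein. The highest mean signals were those of the probes of Rplp1 (14.31), a protein of the ribosomal stalk, and Rps29 (14.29), which can differ by probe as well as by mRNA. Many ribosomal protein genes have processed pseudogenes, and signal from such copies could not be separated from that of the gene.

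Samples of some conditions stood apart. PyMT spleen 2 differed from the other PyMT spleens by an SD of 0.95 and 1.04 over probes with a mean above 8, against 0.47 between PyMT spleens 1 and 3. Over 18 neutrophil markers its mean signal was 12.49, against 10.86 to 11.35 in the other 4 spleens, 12.33 to 12.48 in the 3 bone marrow arrays and 6.50 to 8.71 in the 6 BrM arrays. The naïve bone marrow arrays differed by an SD of only 0.12 over the same probes, and their titles carry 1 code with a suffix, so they may not be independent. The title of naïve spleen 1 carries the same code. Itgam and Ptprc, which encode the CD11b of the sort and the leukocyte antigen CD45, did not pass the test between BrM and the other tissues.

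On the quantile normalized scale the arrays formed 2 levels. The median signal of the 49 bright members on each array was 13.22, 13.19, 13.17 and 13.12 in PyMT BrM and 12.97 and 13.09 in EO771 BrM. It was 13.26, 12.50 and 13.17 in PyMT spleens and 13.20 and 13.14 in naïve spleens, against 12.56 in PyMT bone marrow and 12.57 and 12.55 in naïve bone marrow. The 3 bone marrow arrays and PyMT spleen 2 were thus low, and the other 10 arrays high, with no overlap. The condition means of this median were 13.18 ± 0.04 (SD, n = 4) in PyMT BrM, 13.03 ± 0.08 (n = 2) in EO771 BrM, 12.98 ± 0.41 (n = 3) in PyMT spleens, 13.17 ± 0.04 (n = 2) in naïve spleens and 12.56 ± 0.01 (n = 2) in naïve bone marrow. PyMT BrM and naïve spleen did not differ beyond their spread on this scale. The levels depended on the scaling. Centred on 9 reference genes, BrM fell below spleen gene by gene, with a median of -0.39 and 2 of the 49 positive. PyMT bone marrow was 1 array, and gene by gene its difference from naïve bone marrow had a median of 0.17, with 35 of the 49 positive, or 0.49 with 47 positive once all arrays were centred on 9 reference genes.

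**Figure D1:**
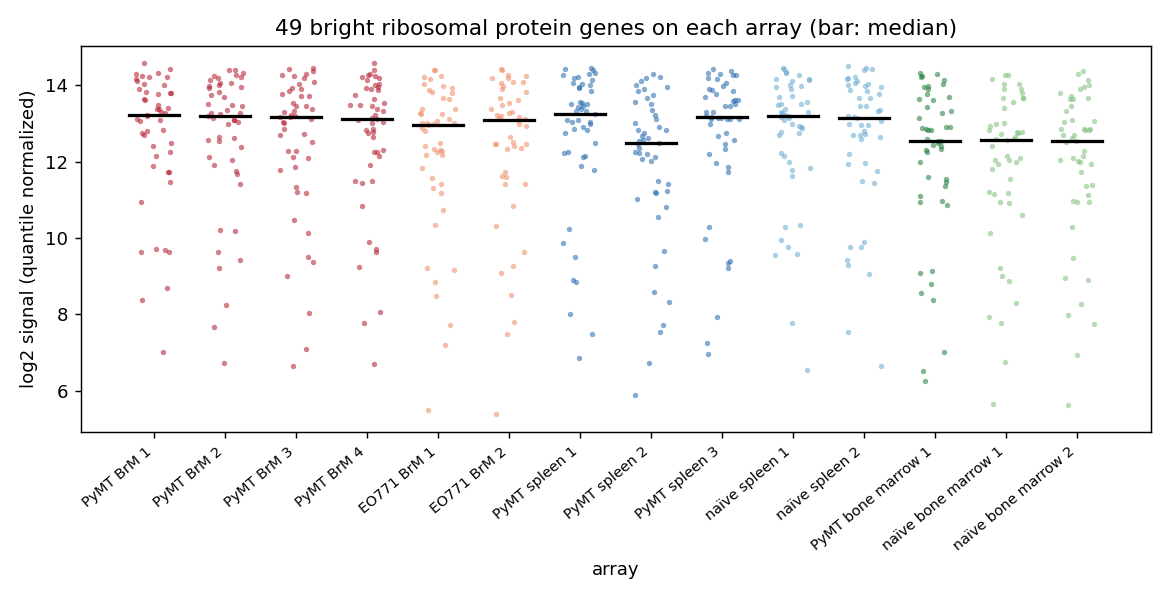
Log2 signal (y axis) of the 49 bright ribosomal protein genes on each of the 14 arrays (x axis), each point a gene and each bar the median. The medians lie at 12.50 to 12.57 on the bone marrow arrays and PyMT spleen 2, and at 12.97 to 13.26 on the other 10 arrays.

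Gene by gene, naïve bone marrow had the lowest of the 6 condition means for 31 of the 49 bright members and PyMT bone marrow for 13. Naïve spleen had the highest for 27, PyMT BrM for 18 and PyMT spleen for 4. EO771 BrM was lowest for 4, Rpl21, Rpl22, Rplp2 and Rps9, and highest for none. PyMT BrM was lowest for Rps29 alone. An F test over the 6 conditions (limma, Benjamini-Hochberg over all probes, calls at an adjusted p under 0.01) called 2 of the 65 members (3.08%), Rps3a1 (adjusted p = 0.0013) and Rps19bp1 (adjusted p = 0.00619), where 9.68% of all probes were called. Without PyMT spleen 2 it called 18 members (27.7%), where 17.8% of all probes were called.

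In naïve mice the ribosomal protein signal was higher on the spleen arrays than on the bone marrow arrays for most bright members. The difference, naïve spleen minus naïve bone marrow, was positive for 47 of the 49 bright members, with a median of 0.76 log2 units, or 1.70-fold. Over the 10042 probes as bright as these members, the median difference was -0.05. For 46 of the 49 both spleen arrays lay above both bone marrow arrays, where 23.9% of all probes and 37.1% of the equally bright ones did so. The exceptions were Rpl23, Rpl41 and Rps29, 3 of the brightest members. None of the 65 members passed the adjusted threshold in limma, as 0% of all probes did, and 33 of the 65 had an unadjusted p under 0.05, where 15% of all probes did. In bulk samples, fewer cells of a type and less RNA per cell cannot be told apart.

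This comparison turned on PyMT spleen 2, through the spread that all conditions share in the fit. Without that array, 6 members were called, all higher in naïve spleen, where 3.27% of all probes were called and 2.09% were called higher. They were Rpl22 (1.74, SE 0.27, adjusted p = 0.00363), Rpl12 (1.5, SE 0.22, adjusted p = 0.00309), Rpl19 (1.36, SE 0.23), Rpl13a (1.35, SE 0.25), Rps15 (1.27, SE 0.21) and Rps19 (1.09, SE 0.19). All of these are structural proteins of the ribosome, Rpl22 being dispensable for translation in most cells and needed for αβ T cell development. Rpl4, a large subunit protein, had the smallest p with all arrays in the fit (1.23, SE 0.28, adjusted p = 0.104). Over the PyMT and naïve sets together, with the set as a term, spleen was above bone marrow for 49 of 49 bright members, with a median of 0.59. It was 0.71 without PyMT spleen 2, and then 2 members were called, Rpl12 (1.46, SE 0.19, adjusted p = 0.00504) and Rps15 (1.15, SE 0.18, adjusted p = 0.00948), where 3.53% of all probes were called.

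PyMT spleen 2 lay below both other PyMT spleens for 48 of the 49 bright members and below both naïve spleens for 46. The bone marrow arrays were all below the 4 other spleens for 42 of the 49, where 8.96% of all probes showed that pattern. On the probes used, the 7 members outside it were Rpl23, Rpl41, Rplp1, Rplp2, Rps29, Rps3a1 and Rps9. As an example, Rpl12, a large subunit protein at the base of the stalk, had 12.87, 11.42 and 13.13 in PyMT spleens and 12.89 and 12.66 in naïve spleens, against 11.61 in PyMT bone marrow and 11.19 and 11.36 in naïve bone marrow. Its value in PyMT spleen 2 thus fell within the range of bone marrow. Across the spleen and bone marrow arrays, neutrophil signal was high and summed B cell signal low where ribosomal protein signal was low. The log2 summed signal of the neutrophil markers was 16.70 to 16.83 in naïve spleens against 17.52 to 17.54 in naïve bone marrow. That of 9 erythroid markers was 13.7 to 14.5 against 15.40 to 15.43, and that of 8 B cell markers was 12.7 to 13.1 against 10.18 to 10.23. The B cell sum was 13.1, 9.94 and 12.9 in PyMT spleens 1, 2 and 3, against 11.1 in PyMT bone marrow. The mean B cell signal did not separate the arrays in this way, with 7.28 in PyMT bone marrow and 7.22 in naïve spleen 2. The erythroid sum did not follow the ribosomal protein signal among the PyMT spleens, with 11.3, 15.4 and 15.8 in spleens 1, 2 and 3, against 15.7 in PyMT bone marrow. The part of these cell types in the ribosomal protein difference was not tested.

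Myeloid cells of BrM were set against each control tissue in turn. Most bright members had more signal in them than in bone marrow cells, while the comparison with spleen cells depended on the scaling. BrM minus bone marrow was positive for 46 of the 49 bright members, with a median of 0.55, or 1.46-fold, against a median of 0.02 over equally bright probes. For 28 of the 49 all 3 bone marrow arrays lay below all 6 BrM arrays, where 9.45% of all probes did. Of the 65 members, 6 (9.23%) were called higher and 2 (3.08%) lower, where 3.71% and 3.91% of all probes were called. BrM minus spleen was positive for 21 of the 49, with a median of -0.01, and 0 of the 65 members were called, where 4% of all probes were. At an unadjusted p under 0.05 there were 5 of the 65, where 20% of all probes passed. Without PyMT spleen 2 the median was -0.11, with 13 of the 49 positive. Centred on the reference genes, BrM minus spleen had a median of -0.39, with 2 of the 49 positive, and of -0.53 with 0 positive when PyMT spleen 2 was also left out.

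**Figure D2:**
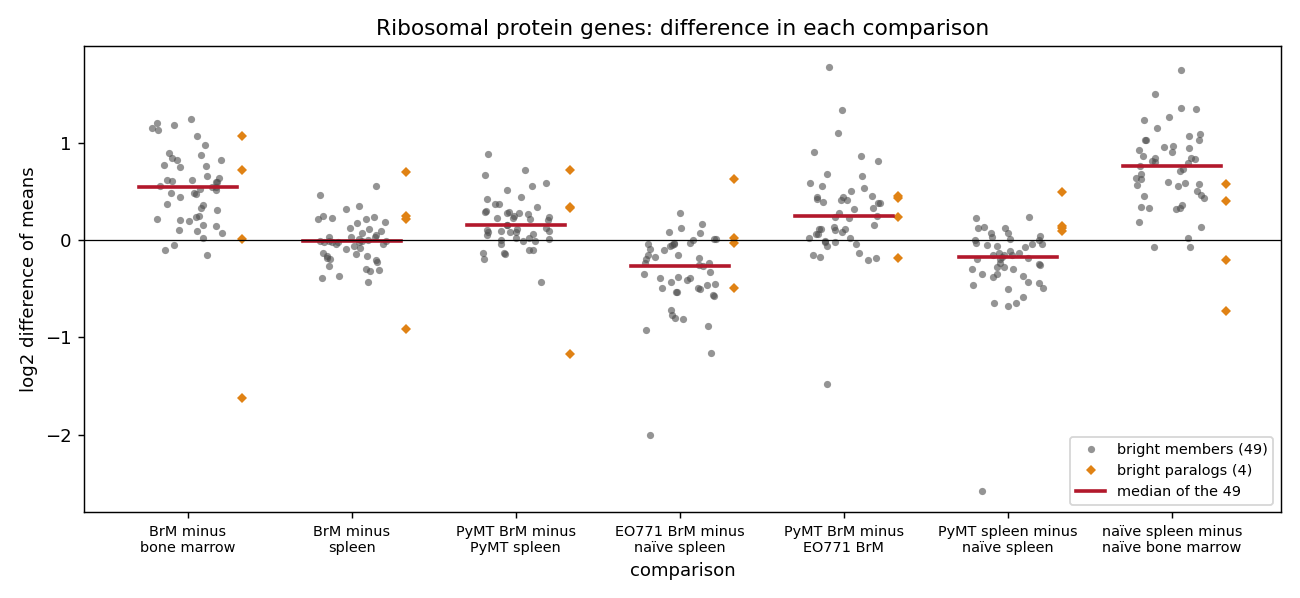
Log2 difference of group means (y axis) of the 49 bright ribosomal protein genes (grey points), with their median (red bar), and of 4 bright paralogs (orange diamonds), for 7 comparisons (x axis). The medians are 0.55 for BrM minus bone marrow and 0.76 for naïve spleen minus naïve bone marrow, and -0.01 for BrM minus spleen.

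The members called in BrM against bone marrow included 4 bright structural proteins. Rpl7a, a large subunit protein, had 10.94, 10.21, 10.48 and 10.84 in PyMT BrM and 10.34 and 10.33 in EO771 BrM, against 9.13 in PyMT bone marrow and 9.22 and 9.48 in naïve bone marrow. All 6 BrM arrays were above all bone marrow arrays, by 1.25 on average (SE 0.22, adjusted p = 0.00335 from limma). The naïve spleens, with 10.35 and 9.77, overlapped the BrM arrays.

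Rpl12 had 12.84, 12.54, 12.70 and 12.77 in PyMT BrM and 12.18 and 12.47 in EO771 BrM, above the bone marrow values given above, with a difference of 1.20 (SE 0.21, adjusted p = 0.00283 from limma). Rpl24, a large subunit protein at the subunit interface, differed by 1.18 (SE 0.21, adjusted p = 0.00405), with 12.40, 12.06, 12.11 and 12.25 in PyMT BrM and 11.84 and 11.72 in EO771 BrM against 11.11 in PyMT bone marrow and 10.60 and 10.94 in naïve bone marrow. Both genes separated BrM from bone marrow without overlap. Rps7, a small subunit protein that also binds MDM2, differed by 1.06 (SE 0.21, adjusted p = 0.00655). It had 13.48, 13.49, 13.47 and 13.46 in PyMT BrM and 12.99 and 13.09 in EO771 BrM against 12.59 in PyMT bone marrow and 12.06 and 12.15 in naïve bone marrow. With the naïve bone marrow arrays averaged into 1, none of these 4 was called and Rpl3l was the 1 member left (-1.76, SE 0.32, adjusted p = 0.00871), while the median of the bright members was 0.52.

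**Figure D3:**
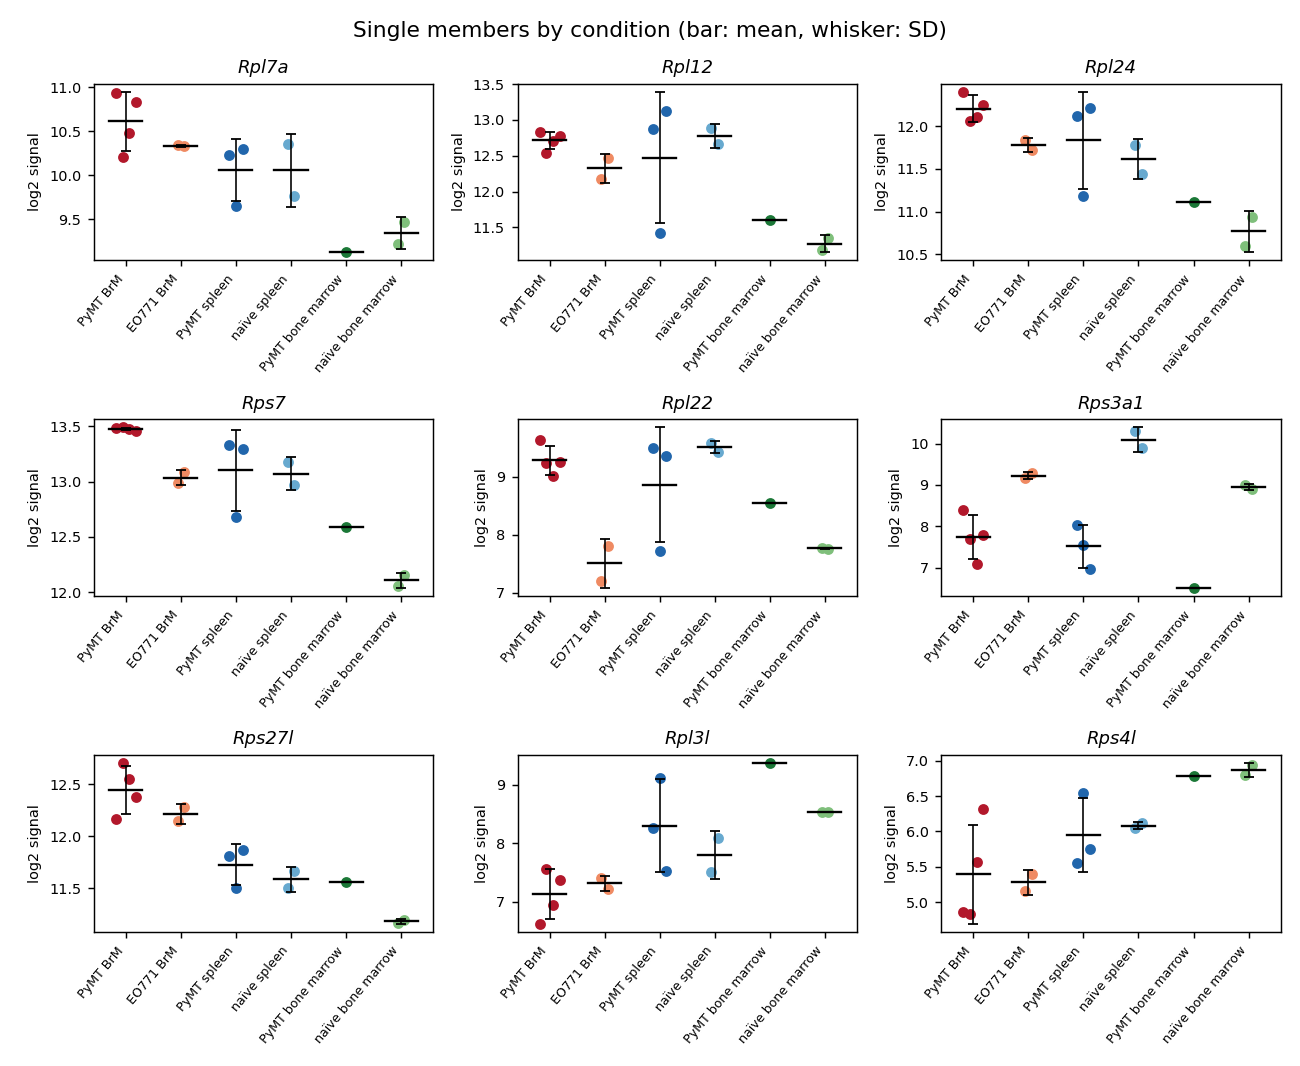
Log2 signal (y axis) of 9 single members in the 6 conditions (x axis), each point an array, with the mean (bar) and SD (whisker, where n is above 1). Rpl7a, Rpl12, Rpl24 and Rps7 are lowest in bone marrow, Rps27l is highest in BrM, Rpl3l and Rps4l are highest in bone marrow, and Rps3a1 is low on all 8 arrays of PyMT mice.

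With both models and both control tissues pooled, as in the study, few ribosomal protein genes differed. Of the 65 members, 2 (3.08%) were called between the 6 BrM arrays and the 8 arrays of spleen and marrow cells, both higher in BrM, where 6.92% of all probes were called and 3.8% were called higher. Neither is a structural protein of the canonical ribosome. The 49 bright members had a median difference of 0.13, with 38 positive and 0 called, against 0.03 over equally bright probes. Centred on 9 reference genes, which shifted all probes by -0.26, the median turned to -0.13. The share of calls that were higher among all called probes was then 25.4%, against 54.9% before. Rplp0, the stalk protein often used as a reference gene in PCR, had the largest pooled difference among the 49 bright members (0.78, SE 0.24, adjusted p = 0.0475 from limma), with 8.69, 8.25, 8.05 and 8.07 in PyMT BrM and 7.72 and 7.49 in EO771 BrM. It had 7.50, 6.72 and 7.92 in PyMT spleens, 7.78 and 7.53 in naïve spleens, 7.01 in PyMT bone marrow and 6.75 and 6.94 in naïve bone marrow. The PyMT BrM arrays were all above the rest, and EO771 BrM overlapped the spleens.

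The called members were Rps27l and Rps19bp1. Rps27l encodes a paralog of Rps27 that is a p53 target. It had 12.17, 12.70, 12.55 and 12.38 in PyMT BrM and 12.15 and 12.28 in EO771 BrM. It had 11.81, 11.50 and 11.87 in PyMT spleens, 11.50 and 11.67 in naïve spleens, 11.56 in PyMT bone marrow and 11.17 and 11.20 in naïve bone marrow. All BrM arrays lay above all others, by 0.84 on average (SE 0.17, adjusted p = 0.00284 from limma). This lack of overlap was shared by Rps19bp1 and by no bright structural member, where 3.26% of all probes showed it. It was higher than bone marrow by 1.07 (SE 0.20, adjusted p = 0.00494), and than spleen by 0.70 (SE 0.18), short of the threshold at an adjusted p of 0.0322.

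Rps19bp1 encodes a protein that binds Rps19 and activates the deacetylase SIRT1. It had 6.30, 6.40, 6.35 and 6.18 in PyMT BrM and 5.96 and 5.94 in EO771 BrM. It had 5.91, 5.35 and 5.67 in PyMT spleens, 5.41 and 5.36 in naïve spleens, 5.16 in PyMT bone marrow and 4.95 and 4.93 in naïve bone marrow. Its BrM arrays too lay above all others, by 0.85 (SE 0.18, adjusted p = 0.00476 from limma), at a signal just under the limit for bright members. Leaving out 1 array ended this call in 7 of 14 cases, with an adjusted p of up to 0.0144 from limma. These were each of the 4 PyMT BrM arrays and each of the 3 bone marrow arrays. The Rps27l call was not lost in any of the 14, with an adjusted p of up to 0.00942. Both calls were lost when all arrays were centred on the reference genes, with a limma adjusted p of 0.106 for Rps27l and 0.13 for Rps19bp1.

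In the PyMT model alone, 42 of the 49 bright members were positive for BrM against the spleens and bone marrow of PyMT mice, with a median of 0.23. It was 0.10 without PyMT spleen 2, and -0.11 when centred on the reference genes, where the higher share of called probes was 20.7% against 61%. The 1 member called (1.54% of 65, where 4.79% of all probes were called) was Rps23rg1, a retrogene of Rps23, which fell by 1.11 in BrM (SE 0.24, adjusted p = 0.00904 from limma), where 1.87% of all probes were called lower. A second probe of the gene, with a mean of 3.51, differed by -0.29 (adjusted p = 0.627 from limma). The signal of the first probe was near the background, with 3.69, 3.54, 4.12 and 3.62 in PyMT BrM against 5.0, 4.64 and 4.69 in PyMT spleens and 5.11 in PyMT bone marrow. The groups did not overlap, with BrM lower, and 7.2% of all probes showed this pattern. However, no member was called with the mouse codes or the title numbers as a replicate block. The median was 0.15 against PyMT spleen and 0.53 against PyMT bone marrow.

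In the EO771 model against naïve tissues, 29 of the 49 were positive, with a median of 0.04. Centred on the reference genes it was -0.18, and the higher share of called probes was 38% against 63.3%. No member was called, where 3.12% of all probes were. This median joined opposite signs, since EO771 BrM minus naïve spleen was -0.27, with 8 of the 49 positive, and EO771 BrM minus naïve bone marrow was 0.41, with 44 of the 49 positive. The difference between the PyMT and EO771 comparisons called 0 members, where 0.13% of all probes were called.

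Between the 2 kinds of BrM, PyMT cells had the higher signal for most bright members. PyMT BrM minus EO771 BrM was positive for 38 of the 49, with a median of 0.25, against 0.10 over equally bright probes. For 25 of the 49 all 4 PyMT BrM arrays lay above both EO771 BrM arrays, where 18.8% of all probes did. No member was called at an adjusted p under 0.01, where 1.59% of all probes were called. Other lists differed between the models too. Of 18 cell cycle genes 3 were called higher in PyMT BrM, with a median of 1.65 and a log2 summed signal of 12.5 to 13.4 in PyMT BrM against 10.96 to 11.15 in EO771 BrM. For naïve spleen minus naïve bone marrow this list had a median of -1.21, opposite in sign to that of the bright members, and 0 were called. Its log2 summed signal was 11.4 to 12.1 in naïve spleens against 13.17 to 13.19 in naïve bone marrow. Of 11 carcinoma markers 3 were called higher, with a mean signal of 4.67 to 5.41 in PyMT BrM against 4.05 to 4.08 in EO771 BrM. These means were low, with EO771 BrM at the array median of 4.06 and the spleen and bone marrow arrays at 3.39 to 4.16. None of 7 microglia markers was called in limma, with a median of 1.19. Their part in the ribosomal protein difference was not tested. Without PyMT spleen 2, limma called Rpl22 (1.78, SE 0.23, adjusted p = 0.00178) and Rpl21 (1.33, SE 0.20, adjusted p = 0.00306), where 3.6% of all probes were called. With all arrays in the fit their adjusted p-values were 0.0316 and 0.0308.

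Rpl22 had 9.63, 9.23, 9.02 and 9.25 in PyMT BrM against 7.21 and 7.80 in EO771 BrM, 9.5, 7.72 and 9.35 in PyMT spleens, 9.59 and 9.43 in naïve spleens, 8.55 in PyMT bone marrow and 7.78 and 7.76 in naïve bone marrow. EO771 BrM thus lay at the level of naïve bone marrow, with a difference of -2.0 from naïve spleen (SE 0.49, adjusted p = 0.0377 from limma). Rpl21, a large subunit protein, had 7.01, 6.73, 6.65 and 6.71 in PyMT BrM against 5.49 and 5.38 in EO771 BrM, and 5.64 in both naïve bone marrow arrays. Its EO771 BrM arrays were below every other array, as for 4.69% of all probes. Rps9 and Rplp2 were also lowest in EO771 BrM. Rps9 had 14.29, 14.34, 14.31 and 14.25 in PyMT BrM against 13.80 and 13.91 in EO771 BrM, and 14.19 to 14.43 on the other 8 arrays. It did not pass the test between the BrM models (0.44, SE 0.19, adjusted p = 0.212 from limma), nor did Rplp2 (0.54, SE 0.27, adjusted p = 0.293).

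Rps3a1, a small subunit protein, had lower values on the arrays of PyMT mice in every tissue. It had 8.38, 7.68, 7.10 and 7.79 in PyMT BrM against 9.16 and 9.28 in EO771 BrM. It had 8.02, 7.55 and 6.98 in PyMT spleens against 10.30 and 9.89 in naïve spleens, and 6.52 in PyMT bone marrow against 9.0 and 8.90 in naïve bone marrow. All 8 arrays of PyMT mice were below all 6 others, as for 2.27% of all probes. The difference, PyMT spleen minus naïve spleen, was -2.58 (SE 0.38), the largest of any member in that comparison and short of the threshold at an adjusted p of 0.0114 from limma. Between PyMT and EO771 BrM it was -1.48 (SE 0.36, adjusted p = 0.0324). Only 1 probe measured this gene. Within each set its order over tissues was that of the other members, with naïve spleen 1.15 above naïve bone marrow (SE 0.41, adjusted p = 0.209).

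For the other bright members PyMT spleen minus naïve spleen was small. The median over the 49 was -0.18 with all PyMT spleens and 0.06 without PyMT spleen 2, and 0 members were called, where 0.115% of all probes were.

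The members called lower in BrM than in bone marrow were both paralogs. Rpl3l, the muscle form of Rpl3, fell by 1.62 (SE 0.27, adjusted p = 0.00254 from limma). It had 6.63, 7.57, 6.95 and 7.37 in PyMT BrM and 7.41 and 7.23 in EO771 BrM against 9.36 in PyMT bone marrow and 8.54 in both naïve bone marrow arrays. The groups did not overlap, with bone marrow higher, and 9.27% of all probes showed this pattern. PyMT spleen 2, with 9.11, again lay in the bone marrow range. Rpl3 itself, with 13.61, 13.52, 13.47 and 13.50 in PyMT BrM and 13.02 and 13.13 in EO771 BrM against 12.86 in PyMT bone marrow and 12.83 and 12.86 in naïve bone marrow, ran the other way. Rps4l, a gene named for its likeness to Rps4, fell by 1.48 (SE 0.31, adjusted p = 0.00929 from limma), with 4.87, 4.84, 5.56 and 6.32 in PyMT BrM and 5.15 and 5.40 in EO771 BrM against 6.79 in PyMT bone marrow and 6.80 and 6.93 in naïve bone marrow. Rps4x, which encodes the ubiquitous protein, had 13.39 to 14.14 in BrM against 13.00 to 13.43 in bone marrow. Rpl36al and Rpl7l1 did not pass the test in any comparison, and Rpl39l and Rpl22l1 were near the background.

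Among the stalk proteins, Rplp0 and Rplp1 were lower in bone marrow than in BrM without overlap, and Rplp2 was not. Rplp1 had 14.58, 14.41, 14.46 and 14.58 in PyMT BrM and 14.39 and 14.41 in EO771 BrM against 14.30 in PyMT bone marrow and 13.89 and 13.90 in naïve bone marrow. The first and last PyMT BrM values are the highest that any probe could take after normalization. Small subunit genes had a median difference of 0.73 and large subunit and stalk genes of 0.79 for naïve spleen minus naïve bone marrow. For PyMT BrM minus EO771 BrM the medians were 0.13 and 0.30, and for the pooled comparison 0.10 and 0.20. No test was made between the subunits.

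The median difference was smaller at high signal. Naïve spleen minus naïve bone marrow had a median of 1.15 over the 7 bright members below 10, 0.91 over the 7 from 10 to 12, 0.71 over the 26 from 12 to 14 and 0.18 over the 9 above 14. Members above 14 still ranged up to 0.79, the value of the small subunit protein Rps2. The brightest members lie close to the top of the scale, at 14.6. Rps29 had 14.23, 14.19, 14.27 and 14.29 in PyMT BrM and 14.25 and 14.28 in EO771 BrM against 14.25 in PyMT bone marrow and 14.28 and 14.38 in naïve bone marrow.

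**Figure D4:**
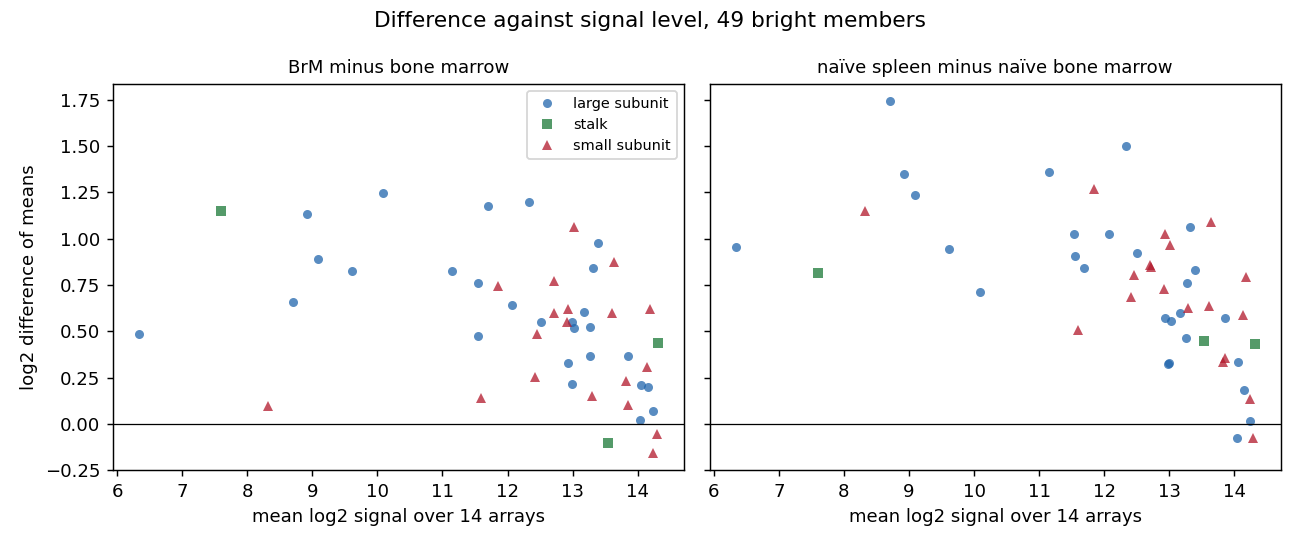
Log2 difference (y axis) of BrM minus bone marrow (left) and naïve spleen minus naïve bone marrow (right) against the mean log2 signal over 14 arrays (x axis), each point 1 of the 49 bright members, marked by subunit. The median in the right panel is 0.18 for members above 14, which range up to 0.79, against 1.15 for members below 10.

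Further probes of the same genes gave like directions. Of 15 further bright probes, of 12 genes, 15 had the sign of the first probe for BrM minus bone marrow and 12 for naïve spleen minus naïve bone marrow. Those with the other sign were the probes of Rpl23 given above and a probe of Rpl38 (-0.15, against 0.18 for the first). The other 16 further probes were not bright.

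Reference genes also shifted between some tissues. The mean signal of 9 such genes was 10.50 to 10.59 in PyMT BrM and 10.64 to 10.70 in EO771 BrM, 10.03 to 10.37 in PyMT spleens and 10.25 to 10.28 in naïve spleens, 10.30 in PyMT bone marrow and 10.61 to 10.63 in naïve bone marrow. Centred on them, the median of the 49 bright members became 0.48 for BrM minus bone marrow and 1.11 for naïve spleen minus naïve bone marrow, with 44 and 49 of the 49 positive. PyMT BrM minus PyMT spleen, with a median of 0.15 before, became -0.23.

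Genes that make or use ribosomes were followed in the pooled comparison, without centring on the reference genes. Of 53 measured ribosome biogenesis genes, 8 were higher in BrM and 1 was lower, with a median of 0.47, where 6.92% of all probes were called. The largest rises were Heatr1, a factor of ribosomal RNA transcription and processing (1.41, SE 0.29, adjusted p = 0.00394 from limma), and Nop56, a protein of the box C/D particles that methylate ribosomal RNA (1.39, SE 0.25, adjusted p = 0.00147). Ubtf, a transcription factor of RNA polymerase I, fell by 0.93 (SE 0.21, adjusted p = 0.00669). Within the models, 2 of the 53 were called for PyMT and 0 for EO771, where 4.79% and 3.12% of all probes were. Naïve spleen minus naïve bone marrow had a median of 0.56 over this list. The log2 summed signal of the list was 14.3 to 14.5 in PyMT BrM, 14.15 to 14.21 in EO771 BrM, 13.35 to 14.39 in PyMT spleens, 14.1 to 14.2 in naïve spleens, 13.6 in PyMT bone marrow and 13.29 to 13.35 in naïve bone marrow. PyMT spleen 2 again gave the low PyMT spleen value. The EO771 BrM arrays were level with the naïve spleens here, whereas most bright ribosomal protein genes had lower means in EO771 BrM.

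Of 76 mitochondrial ribosomal protein genes, 8 were higher and 0 lower, with a median of 0.41, where 3.8% of all probes were called higher and 6.92% in either direction. The smaller lists that follow had 1 to 3 called genes each, to be read against the same shares. Mrpl42 (1.25, SE 0.24, adjusted p = 0.00247 from limma) and Mrpl27 (1.05, SE 0.14, adjusted p = 8.03e-05) had the largest rises. Their list sum was 15.6 to 15.8 in PyMT BrM and 15.31 to 15.34 in EO771 BrM, 15.2 to 15.5 in PyMT spleens, 15.23 to 15.27 in naïve spleens, 15.4 in PyMT bone marrow and 15.10 to 15.13 in naïve bone marrow. The PyMT spleens and PyMT bone marrow thus overlapped or exceeded EO771 BrM. Of 20 translation initiation factors 2 were higher, Eif4a1, the helicase of the cap-binding complex (1.08, SE 0.18, adjusted p = 0.000669), and Eif3c, a subunit of eIF3 (0.96, SE 0.20, adjusted p = 0.00442). Of 18 elongation factors and other TOP mRNAs only Eef1e1, a scaffold protein of tRNA synthetases, was higher (1.44, SE 0.23, adjusted p = 0.000526). Among 21 MYC and mTOR regulators Rptor, the mTORC1 subunit, was higher (1.03, SE 0.23, adjusted p = 0.00693). Mlst8, a subunit of both mTOR complexes, fell by 2.02 (SE 0.36, adjusted p = 0.00104), and the translation repressor Eif4ebp2 fell by 1.19 (SE 0.25, adjusted p = 0.00416). None of 18 cell cycle genes was called in this comparison.

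Markers of other cells moved with tissue as well. In BrM against spleen and bone marrow, 16 of 18 neutrophil markers were lower and 8 of 12 macrophage markers were higher. Among the rest, 6 of 9 erythroid, 4 of 8 B cell and 3 of 8 T and NK cell markers were lower, and 2 of 11 carcinoma and 3 of 7 microglia markers were higher. Of all probes, 6.92% were called in this comparison and 3.8% were called higher. The log2 summed signal of the neutrophil list was 13.1 to 14.5 in PyMT BrM and 13.7 to 14.2 in EO771 BrM, 16.7 to 17.5 in PyMT spleens, 16.70 to 16.83 in naïve spleens, 17.5 in PyMT bone marrow and 17.52 to 17.54 in naïve bone marrow. That of the macrophage list was 16.26 to 16.36 in PyMT BrM and 15.9 to 16.2 in EO771 BrM, 12.5 to 14.8 in PyMT spleens, 14.2 to 15.3 in naïve spleens, 13.3 in PyMT bone marrow and 12.49 to 12.51 in naïve bone marrow. The low PyMT spleen value of the macrophage list was that of PyMT spleen 2, just above naïve bone marrow. The part of these cell types in the ribosomal protein signal was not tested.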

How the data were processed

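RNA of GFP+CD11b+ cells was hybridised to Illumina MouseWG-6 v2 arrays, 14 in all. The deposited values were log2 signals that the authors had quantile normalized, and GenomeStudio 2011.1 and limma are named in the submitters' processing notes. The background correction and the base of the logarithm are not given in the sources used here, and base 2 fits the spread of the values up to 14.6. Each array held 80 values below 0. Probes without a gene symbol (10378) or with several (18) were tested but not named. The spleens of PyMT mice were 3 samples here.

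Tests were two-sided, used limma 3.58.1 in R 4.3.3 (lmFit and eBayes, no trend) and Benjamini-Hochberg adjustment over all 45281 probes, and an adjusted p under 0.01 was a call. For the pooled comparison 8 arrays were set against the 6 of BrM, a fit of 4 groups gave the comparison within each model, and a fit of 6 conditions gave the rest. BrM against 1 control tissue was fitted on those arrays alone. Differences are of log2 means with limma's standard errors, and p-values measure only the spread between these samples. The fit was tested on simulated data. Signals of different genes also differ by probe, so levels were compared within a gene.

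Same-coded samples of PyMT BrM and spleen had deviations that correlated at -0.04, -0.00 and -0.02, so the codes were not used as pairs in the main fits. Members and gene lists were chosen with earlier results of these data known. Members were named if called in a comparison, or if among the 5 smallest p-values where fewer than 5 were called, together with the stalk proteins, Rpsa, paralogs and the brightest and dimmest. In the gene lists, the largest called rises and falls of the pooled comparison were named. Members shown beside these were chosen after their values were seen, and the mitochondrial list was added then. Promoters are RefSeq entries of GRCm38.p6. Alternatives were other thresholds, a variance trend, a filter on dim probes, centring on reference genes, averaged probes or arrays, replicate blocks, the methods' t-test, single control tissues and leaving out each array.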

Additional observations from a re-analysis of the deposited data

Results flagged for a closer look

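In the 4 PyMT BrM arrays, the median of the bright members and 20 named members were examined for a single array far from the others, which chance alone gives in about 1 in 20 groups. This held for Rps15, a small subunit protein. PyMT BrM 2, at 12.38, was above the other PyMT BrM arrays (12.14, 12.14 and 12.15) by 0.921 of the whole range of the condition.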

How the results depend on the processing

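The values below are members called of 65, against 2 (pooled), 1 (PyMT), 2 (6 conditions) and 0 in the other comparisons. Of 188 recomputed counts 128 stayed within 1.5 times. At an adjusted p under 0.05 the counts were 6 pooled, 4 PyMT, 17 over 6 conditions, 1 for PyMT against naïve spleen and 4 for PyMT against EO771 BrM. A variance trend gave 2 PyMT, 14 over 6 conditions and 1 for the spleens, and probes above the median mean gave 3, 8 and 1. Reference-gene centring gave 2 PyMT, averaging all probes of a gene 0 PyMT, and averaging naïve bone marrow 1 pooled and 1 over 6 conditions. The replicate block by title number gave 0 pooled, 0 PyMT and 1 over 6 conditions, and by mouse code, random or fixed, 0 PyMT and otherwise the same counts. Title numbers correlated at 0.01, -0.00 and 0.05 in the PyMT pairs and at 0.01 in the naïve pairs. The naïve pairs hold only 1 value, because with 2 arrays per condition the deviations mirror each other. PyMT samples alone or PyMT spleen as the only control gave 0 PyMT. For the pooled comparison, spleen alone gave 0, bone marrow alone 8 and the methods' t-test at its own threshold 14. Chosen after seeing the data were spleen alone without PyMT spleen 2 (0), bone marrow alone with naïve arrays averaged (1), and all spleens but PyMT spleen 2 against all bone marrow (2). Leaving out each array in turn gave 1 to 3 pooled, 0 to 1 PyMT, 1 to 18 over 6 conditions, 0 to 6 for naïve spleen against naïve bone marrow and 0 to 2 for PyMT against EO771 BrM, the highest of the last 3 without PyMT spleen 2. For naïve spleen against naïve bone marrow and for PyMT against EO771 BrM, the log2 differences were the same with and without PyMT spleen 2. Those counts thus changed through the spread that all conditions share in the fit. Why PyMT spleen 2 stood apart was not tested. Of 166 recomputed medians of the bright members 156 moved by less than the spread between replicates, and the others were those with reference-gene centring, a single control tissue or PyMT spleen 2 left out. That spread was a pooled SD of 0.21, where PyMT spleens had 0.41 and the other replicated conditions 0.01 to 0.08. It exceeds the medians of the pooled (0.13) and EO771 (0.04) comparisons. Such medians could change sign and still count as within it.

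Conditions of 1 to 4 arrays limit what the tests can call, and probes at or below the array median give no measure of their mRNA. No detection p-values were used here.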
